A study of Saccharomyces cerevisiae with 3 samples.

Results

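The 10 genes described are amino acid permeases of budding yeast: GAP1, AGP1, BAP2, BAP3, TAT1, TAT2, MUP1, CAN1, LYP1 and DIP5. A gene was taken when the platform annotation gave a probe set its symbol in upper case. Each of the 10 had 1 probe set, so 10 of the 5498 Saccharomyces cerevisiae probe sets on the array were described, out of 10762 probe sets that are not controls. No filter on low values was applied, and all 10 were measured on all 3 arrays. The rule takes genes by name and uses no measured value, but the names were chosen with earlier results of these data known.

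Amino acid permeases are membrane proteins that carry amino acids into the cell together with protons. Some, such as GAP1, take up almost every amino acid and are transcribed strongly when the nitrogen source is poor, under GATA factors such as Gln3 that a good nitrogen source holds inactive (nitrogen catabolite repression). Others take up a narrow set of amino acids, and several of these are induced by amino acids outside the cell through a sensor complex of Ssy1, Ptr3 and Ssy5 (the SPS sensor), which activates the transcription factors Stp1 and Stp2.

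The series measured total RNA of strain W303 of mating type MAT-alpha. The strain bears cdc15-2, a mutation that blocks exit from mitosis when the culture is warmed. All 3 samples share this genotype, minimal medium in a fermentor, growth at 23 °C and a sampling time of 340 minutes after release from the restrictive temperature. They differ in the share of spike. By the labels, the baseline array holds 100% baseline, the 1% array 99% baseline with 1% spike, and the 10% array 90% baseline with 10% spike. The labels do not say what the spike was, which nitrogen source or which supplements the medium held, or whether the 3 arrays came from a single RNA extract. There are no replicates, so a value carries no error here and sizes are described without p-values.

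Expression is given on the log2 scale and to 3 decimals, as deposited. A probe set's value depends on how well its probes bind as well as on the transcript, and it is not scaled by length. Levels of different genes are therefore placed within the distribution of the array and are not read as an order of transcript amounts. Over the S. cerevisiae probe sets the median was 10.81, 10.82 and 10.84 on the baseline, 1% and 10% arrays, and the upper quartile was 11.97, 11.98 and 11.99. The 4 markers of MAT-alpha cells lay at 13.75 to 14.64 in the baseline array, and the 5 markers of the opposite mating type at 9.60 to 10.99.

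All 10 permease probe sets were bright. In all 3 arrays, 10 of 10 lay above the median of the non-control probe sets (7.75, 7.77 and 7.73), a position that 93.5% of S. cerevisiae probe sets share. Against the upper quartile of the S. cerevisiae probe sets, 9 of 10 lay above it in all 3 arrays, where the share over all S. cerevisiae probe sets was 24.6%. The exception was DIP5. The members ran from 11.72 to 13.44 in the baseline array, with a median of 12.32. None reached the top of the scale, since 361 S. cerevisiae probe sets lay above the brightest member in the baseline array.

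**Figure D1:**
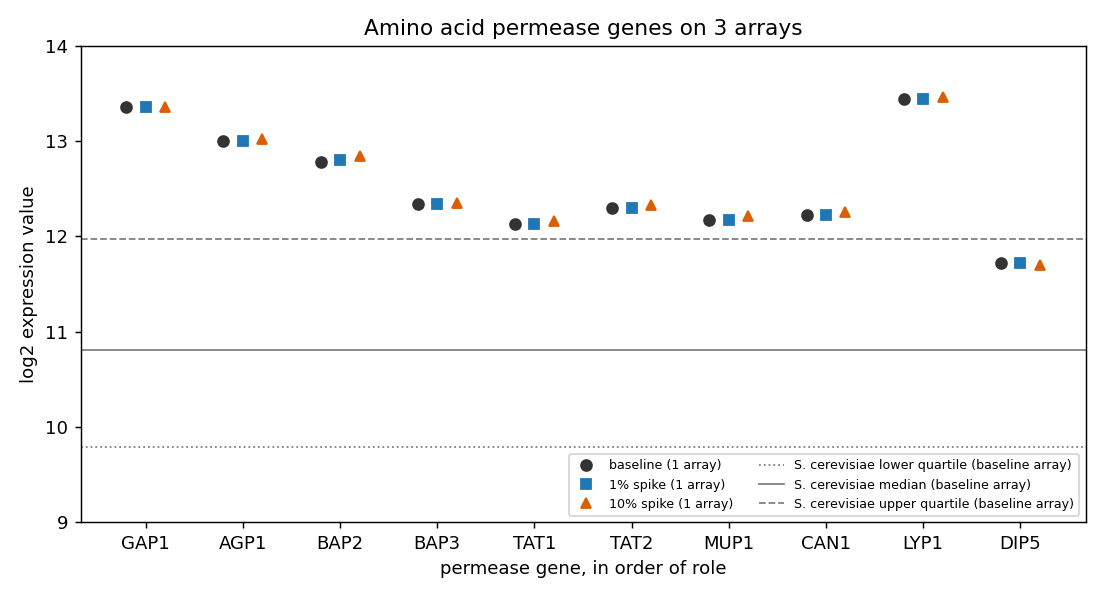
Log2 expression value (vertical axis) of each permease gene (horizontal axis, in order of role) in the baseline, 1% and 10% arrays, 1 point per array with no replicates, and grey lines at the quartiles of the S. cerevisiae probe sets in the baseline array. Every gene except DIP5 sits above the upper quartile of 11.97, and the 3 points of a gene nearly coincide.

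Among the permeases of broad range, GAP1 encodes the general amino acid permease. Its probe set, 1770480_at, read 13.363 without spike, 13.363 with 1% spike and 13.363 with 10% spike. The 3 values were identical to 3 decimals, which held for 1 of the 10 permeases and for 25.9% of S. cerevisiae probe sets. In the baseline array, 92.9% of S. cerevisiae probe sets lay below it. AGP1 encodes a broad-range permease of lower affinity that the SPS sensor induces. Its probe set, 1778141_at, read 13.005 without spike, 13.005 with 1% spike and 13.023 with 10% spike, where it was higher by 0.018. That is a 1.26% higher value on the linear scale, and 58.0% of S. cerevisiae probe sets differed by as much or more in either direction. Among those in the upper quartile of mean level the share was 54.5%.

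The permeases of branched-chain and aromatic amino acids form the largest role group, with 4 members. BAP2, which takes up leucine, isoleucine and valine, read 12.779 without spike, 12.800 with 1% spike and 12.844 with 10% spike on the probe set 1775399_at. It was the only member that was higher in the 1% array, by 0.021 (0.014 with centred arrays), and it had the largest difference of the 10 in 10% over baseline, 0.065 (4.61% on the linear scale). Even so, 29.7% of S. cerevisiae probe sets differed by at least as much in that comparison. Among those in the upper quartile of mean level the share was 20.8%.

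BAP3, a permease of similar range, read 12.341 without spike, 12.341 with 1% spike and 12.355 with 10% spike on 1773640_at. The difference of 0.014 in 10% over baseline was the smallest of the 8 positive ones. TAT1, which takes up tyrosine and also branched-chain amino acids, read 12.134, 12.134 and 12.165 in the same order on 1776193_at. TAT2, the high-affinity tryptophan and tyrosine permease, read 12.300, 12.300 and 12.331 on 1771193_at. TAT1 and TAT2 were each equal in the baseline and 1% arrays and each higher by 0.031 in the 10% array. BAP2 and TAT1 are neighbours in the S. cerevisiae reference gene table, the only pair of members that are, and their differences in 10% over baseline were 0.065 and 0.031.

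MUP1 encodes the high-affinity methionine permease. On 1774026_at it read 12.171 without spike, 12.171 with 1% spike and 12.210 with 10% spike, a difference of 0.039 in 10% over baseline and the next largest after BAP2. In that comparison 43.7% of S. cerevisiae probe sets differed by as much or more.

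CAN1 and LYP1 take up basic amino acids. CAN1, the arginine permease through which the toxic analog canavanine enters, read 12.228 without spike, 12.223 with 1% spike and 12.254 with 10% spike on 1773316_at. As deposited, it differed by -0.005 in 1% over baseline, the only negative value of the 10, and by 0.026 in 10% over baseline, which was -0.001 with centred arrays. Laboratory strains of the W303 background commonly carry a loss-of-function can1 allele, but the labels name no CAN1 allele, and the array value shows that its transcript gave a bright signal and nothing about the protein. LYP1, the lysine permease, read 13.441, 13.441 and 13.467 on 1774040_at, also higher by 0.026 in 10% over baseline. In the baseline array 93.4% of S. cerevisiae probe sets lay below LYP1 and 79.5% below CAN1.

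DIP5 takes up the acidic amino acids glutamate and aspartate. On 1777714_at it read 11.719 without spike, 11.719 with 1% spike and 11.699 with 10% spike. Its difference of -0.020 in 10% over baseline (-1.38% on the linear scale) was the only negative value of the 10 as deposited, where 5 of 10 were negative with centred arrays. DIP5 was the lowest of the 10 in every setting, at -0.047 with centred arrays, -0.051 after quantile normalization over again and -0.038 after removal of a loess trend. In the baseline array 70.4% of S. cerevisiae probe sets lay below it, the lowest such share of the 10.

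Adding spike was accompanied by no large difference at any permease. In 1% over baseline, 0 of 10 members were at or past 2-fold (1 on the log2 scale) in either direction, where the share over all S. cerevisiae probe sets was 0.0%. In 10% over baseline and in 10% over 1% the count was also 0 of 10, against 0.0546% of S. cerevisiae probe sets in each. At 1.5-fold it was 0 of 10 in all 3 comparisons, against 0.0%, 0.255% and 0.146% in that order. Both comparisons over baseline use the same baseline array, and 10% over 1% shares an array with each, so the 3 are not independent. Since the arrays had been given nearly the same distribution over all probe sets, a shift common to all of them could not show. A shift common to the S. cerevisiae probe sets alone could be reduced by that step.

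The small differences were also counted by sign. In 1% over baseline, 8 of 10 members were equal to 3 decimals (62.9% of S. cerevisiae probe sets), 1 was higher (22.6%) and 1 lower (14.5%). With arrays centred on the S. cerevisiae median, 1 was higher and 9 lower in that comparison (80.8% of S. cerevisiae probe sets lower), and quantile normalization over again also gave 1 higher and 9 lower (74.7% lower). Removal of a loess trend gave 1 higher, 8 equal and 1 lower, as deposited. In 10% over baseline, 8 of 10 were higher (45.1%), 1 equal (27.7%) and 1 lower (27.2%). The number higher was 4 with centred arrays (31.6% of S. cerevisiae probe sets) and 6 after quantile normalization over again (36.6%). After removal of a loess trend it was 7 (43.4%). In 10% over 1%, 8 were higher (41.2%), 1 equal (34.6%) and 1 lower (24.2%). The number higher was 6 with centred arrays (30.8%), 6 after quantile normalization over again (37.9%) and 8 after removal of a loess trend (42.5%). The share higher also moved with signal: among the 1377 S. cerevisiae probe sets in the upper quartile of mean level, 54.8% were higher in 10% over baseline.

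The members' median difference was 0 in 1% over baseline, 0.026 in 10% over baseline and 0.0285 in 10% over 1%, where the S. cerevisiae median was 0 in each. With centred arrays the members' median in 10% over baseline was -0.0005, where the S. cerevisiae median was -0.0265. It was 0.003 against -0.015 after quantile normalization over again, and 0.010 against -0.007 after removal of a loess trend. In 10% over baseline the members' median thus lay above the S. cerevisiae median in each setting, though its own sign turned with centring. That did not hold in 1% over baseline, where it was -0.0075 against -0.006 after quantile normalization over again. As deposited, the bright probe sets of the upper quartile had a median of 0.005 in 10% over baseline. The central 95% of their differences ran from -0.093 to 0.134. All 10 members lay inside that range, between -0.020 and 0.065. In 1% over baseline the members ran from -0.005 to 0.021, inside the -0.032 to 0.052 of the bright probe sets.

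**Figure D2:**
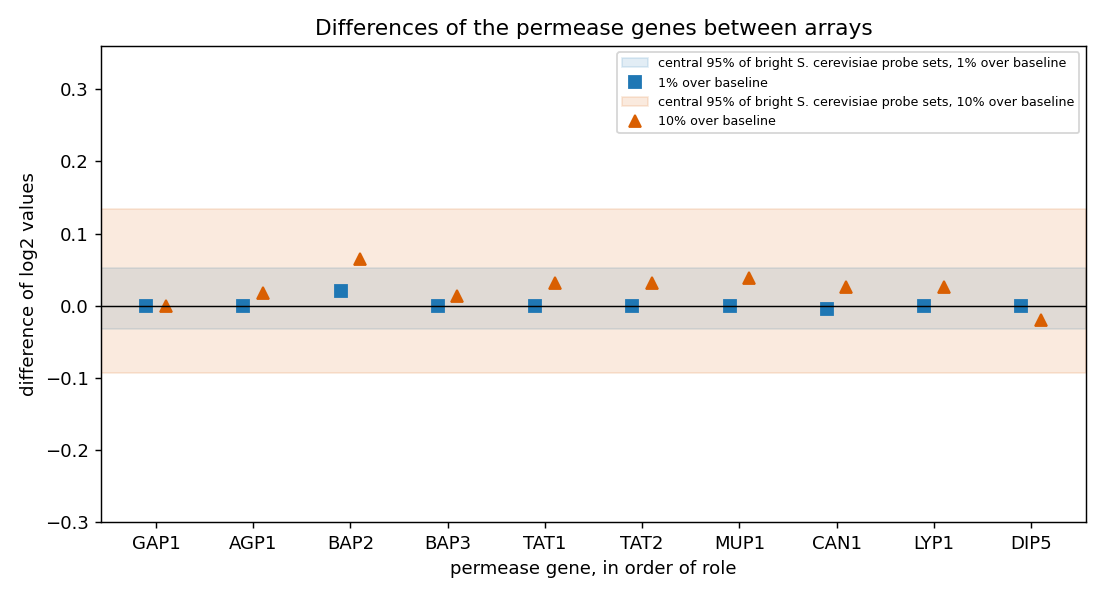
Difference of log2 values (vertical axis) of each permease gene (horizontal axis, in order of role) for 1% over baseline and 10% over baseline, with bands for the central 95% of the S. cerevisiae probe sets in the upper quartile of mean level. All points lie inside the bands. Those above 0 in 10% over baseline number 8 as deposited, 7 after removal of a loess trend, 6 after quantile normalization over again and 4 with centred arrays.

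The differences were also read by role. The 2 general permeases differed by 0 and 0.018 in 10% over baseline, the 4 branched-chain and aromatic permeases by 0.014 to 0.065, and both basic amino acid permeases by 0.026. The methionine permease gene MUP1 was at 0.039 and the acidic amino acid permease gene DIP5 at -0.020. The 2 general permeases read 13.363 and 13.005 in the baseline array and the 8 specific ones 11.719 to 13.441, so the ranges of the levels overlap. The overlap comes from LYP1 alone (13.441). The other specific ones read 11.719 to 12.779, below both general permeases. These levels come from a single medium whose nitrogen source the labels do not name, and no array of a culture on another nitrogen source was measured, so they cannot be turned into a comparison between nitrogen sources.

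For the member with the largest difference, BAP2, the 3 S. cerevisiae genes nearest in the pair of differences over baseline were UBC6, SDH3 and QRI5, at distances of 0.0014, 0.0020 and 0.0022 over 3 arrays. UBC6 differed by 0.022 and 0.064, SDH3 by 0.021 and 0.067, and QRI5 by 0.023 and 0.064 in 1% and 10% over baseline. In all, 46 S. cerevisiae probe sets (0.837%) lay within 0.01 of BAP2.

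A further 6 gene lists of the same physiology held 64 genes, of which 63 were measured. Of the 63, 0 were at or past 2-fold in any comparison. The share over all S. cerevisiae probe sets was 0.0% in 1% over baseline. It was 0.0546% in 10% over baseline and in 10% over 1%, so a count of 0 sets these lists apart from nothing. Above the S. cerevisiae upper quartile in all 3 arrays lay 10 of the 63 (24.6% of all S. cerevisiae probe sets). The counts by sign given for each list stand against 45.1% of S. cerevisiae probe sets higher, 27.7% equal and 27.2% lower in 10% over baseline as deposited, and against 31.6% higher and 68.0% lower with centred arrays.

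The other amino acid permeases, 10 of 10 measured, had a median of 10.63 in the baseline array and ran from 8.22 to 13.30. Only GNP1, a glutamine permease, lay above the upper quartile in all 3 arrays, against 9 of the 10 genes described above. Both sets were chosen with earlier results of these data known, so this contrast is a description only. Against baseline, 3 were higher, 5 equal and 2 lower in the 10% array, and 3 were higher and 7 lower with centred arrays. MUP3, a low-affinity methionine permease, read 9.52, 9.55 and 9.66 in the baseline, 1% and 10% arrays, a difference of 0.135. HIP1, the histidine permease, read 11.41, 11.50 and 11.53, with most of its difference of 0.119 already present in the 1% array (0.095). UGA4, which takes up gamma-aminobutyrate, differed by -0.063.

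**Figure D3:**
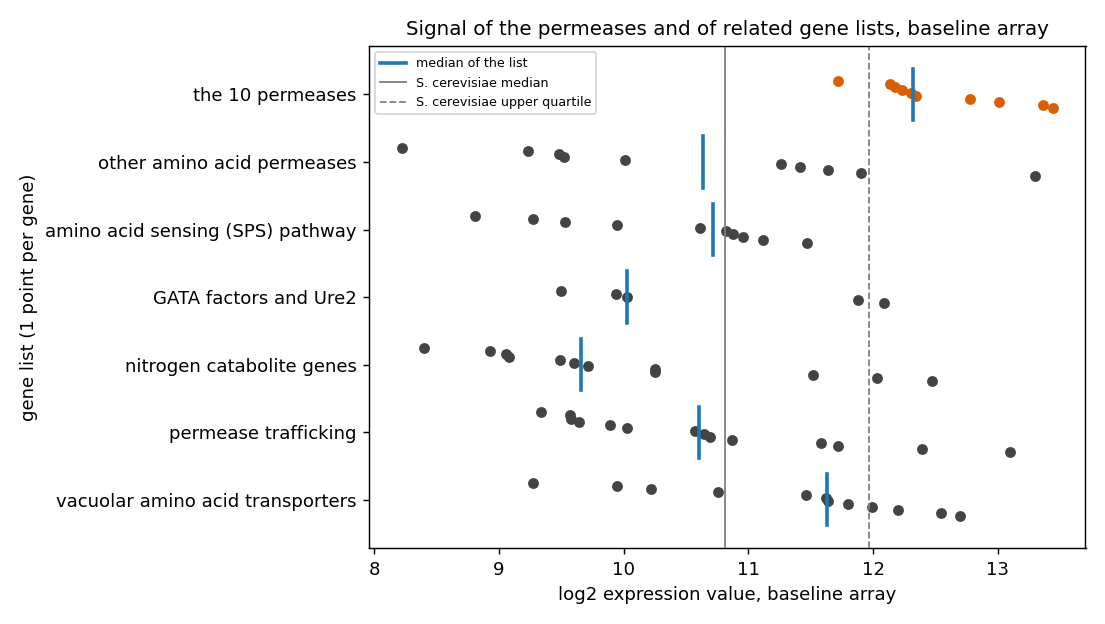
Log2 expression value in the baseline array (horizontal axis) of the 10 permeases and of the genes of 6 related lists (vertical axis), 1 point per gene, with the median of each list and the S. cerevisiae median and upper quartile. The permeases have a median of 12.32 and 9 of 10 lie beyond the upper quartile, whereas the other amino acid permeases have a median of 10.63 and 1 of 10 does. Members and lists were chosen with earlier results of these data known.

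Of the 10 genes of the SPS pathway, 0 lay above the upper quartile and the list's median in the baseline array was 10.72. The sensor genes read 8.81 for SSY1, 9.27 for PTR3 and 9.53 for SSY5 in the baseline array, and the transcription factor genes 10.82 for STP1 and 10.88 for STP2. Set against baseline, 4 were higher, 3 equal and 3 lower at 10% spike, and 3 were higher and 7 lower with centred arrays. SSY1 differed by 0.037, PTR3 by -0.107, SSY5 by -0.096 and STP1 by 0.021, and STP2 was equal in all 3 arrays. The largest difference was 0.143 at DAL81, which encodes a factor that acts with Stp1 and Stp2.

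The genes of nitrogen catabolite repression were read for the same reason. Of the GATA factors, the activator genes GLN3 and GAT1 read 9.94 and 11.88 in the baseline array, and the repressor genes DAL80 and GZF3 read 10.03 and 9.50. URE2, which encodes the protein that holds Gln3 in the cytoplasm, read 12.09. URE2 alone of these 5 lay above the upper quartile in all 3 arrays. At 10% spike DAL80 differed from baseline by -0.150, URE2 by -0.046, GAT1 by 0.044, GLN3 by 0.025 and GZF3 by 0.003. Thus 3 were higher and 2 lower as deposited, and 1 was higher and 4 lower with centred arrays.

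Among the 12 measured nitrogen catabolite genes (of 13 listed), the median was 9.66 in the baseline array and 2 lay above the upper quartile in all 3 arrays, MEP2 and GDH2, a glutamate dehydrogenase gene. The ammonium permease genes read 9.71 for MEP1, 12.03 for MEP2 and 11.52 for MEP3. MEP3, a low-affinity ammonium permease, was equal in the baseline and 1% arrays. Its difference of -0.249 in 10% over baseline was the largest of the 6 lists (-0.270 after quantile normalization over again and -0.275 with centred arrays). That is beyond the S. cerevisiae central 95% of -0.230 to 0.169. No other gene of the 6 lists lay outside this range, which by definition holds only 95% of S. cerevisiae probe sets. MEP2 differed by 0.014 and MEP1 was equal in all 3 arrays. DAL1, the allantoinase gene, differed by -0.181 and the allantoate permease gene DAL5 by -0.102. At 10% spike 4 were higher than in baseline, 2 equal and 6 lower, with a median of -0.007, and with centred arrays 2 were higher and 10 lower, where 68.0% of S. cerevisiae probe sets were lower.

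Genes that act on the movement of permeases to and from the plasma membrane differed by 0.156 or less in 10% over baseline, and 2 of 14, SHR3 and RSP5, lay above the upper quartile in all 3 arrays. SHR3, whose protein packages permeases for export from the endoplasmic reticulum, read 13.10 in the baseline array and was equal in all 3 arrays, as was NPR1, the gene of a kinase that protects Gap1 from removal, at 11.72. RSP5, the ubiquitin ligase that marks permeases for endocytosis, read 12.39 and differed by -0.024 in 10% over baseline. Of the 14 genes, 6 were higher, 5 equal and 3 lower in that comparison, and 3 were higher and 11 lower with centred arrays. LDB19, which encodes an arrestin-like adaptor of Rsp5, differed by 0.156, the arrestin-related gene ART10 by -0.104 and the adaptor gene BUL1 by 0.092.

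The vacuolar amino acid transporters, 12 of 12 measured, had a median of 11.63 in the baseline array, and 4 (AVT1, AVT7, YPQ1 and RTC2) lay above the upper quartile in all 3 arrays. In 10% over baseline 9 were higher, 1 equal and 2 lower, with a median of 0.0285 and a range from -0.055 to 0.082, but with centred arrays 6 were higher and 6 lower and the median was 0.0015. AVT7 differed by 0.082, VBA1, a vacuolar permease of basic amino acids, by 0.081, and AVT5 by 0.061.

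**Figure D4:**
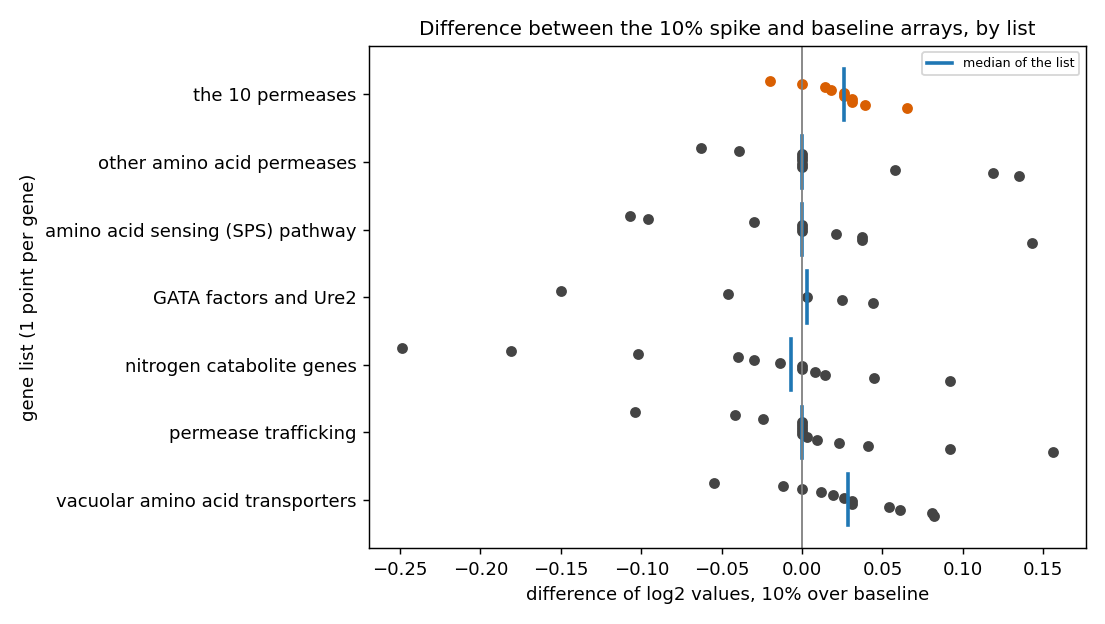
Difference of log2 values between the 10% and baseline arrays (horizontal axis) for the 10 permeases and the genes of 6 related lists (vertical axis), 1 point per gene with the median of each list. The permeases span -0.020 to 0.065, and MEP3 at -0.249 is the point farthest from 0. The signs of some of the small permease differences depend on the scaling.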

How the data were processed

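Total RNA of yeast was labelled by in vitro transcription and hybridized to 3 arrays, 1 per group, per the labels' protocols. The authors deposited log2 values. Per the submitters' processing notes the authors used RMA (background correction, equalized array distributions, median polish); not given in the sources used here are its version, the arrays normalized together and the genome build. The log2 scale rests on RMA's usual output and the range of the values, 3.46 to 15.13. With 3 arrays, median polish can return exactly equal values.

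Values were used as deposited. Of 10928 probe sets, 166 control probe sets (AFFX) were left out. The platform annotation gave 7244 probe sets 1 symbol, 1 several and 3683 none. Symbols were updated by gene identifier to the R64 gene table, which changed 12 and left 5498 S. cerevisiae probe sets. All 10 members have probe sets whose suffix marks a single target transcript. Differences of log2 values were rounded to 3 decimals and counted at 2-fold, a step tested on simulated data. No significance test was run, since precision is limited by the number of arrays. Alternatives were quantile normalization over again, centring on the S. cerevisiae median, removal of a loess trend (span 0.3), a 1.5-fold threshold and means. The text names every member, the 3 genes of each further list with the largest difference, and regulators fixed by name; GNP1, GDH2, AVT1, YPQ1 and RTC2 were added after their values were seen, because they lay above the upper quartile. A planned motif search of promoters was not run, since promoter sequences were not used here. Members and lists were chosen with earlier results of these data known. Python 3.11.15, pandas 2.3.3, numpy 2.4.6 and statsmodels 0.14.6 were used.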

Additional observations from a re-analysis of the deposited data

How the results depend on the processing

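The count of permeases at or past 2-fold was 0 in each comparison under quantile normalization over again, centred arrays, loess removal and the 1.5-fold threshold, and all 10 stayed above the array median under the alternatives tried. The count of permeases equal in all 3 arrays was 1 as deposited, 0 after quantile normalization over again and 0 with centred arrays, since either moves every value of an array. The 90 recomputed single-gene differences moved by at most 0.035, each by less than 1 SD of the S. cerevisiae differences (0.033, 0.101 and 0.085). This is a loose limit. The largest member differences as deposited were 0.021, 0.065 and 0.044 in the same order, so a difference could vanish within 1 SD. The members' median in 10% over baseline ran from -0.0005 (centred) through 0.003 (quantile) and 0.010 (loess) to 0.026. Centring moved the S. cerevisiae median by -0.0265 and the new quantile step by -0.015. The signs of some of these small differences therefore depend on the scaling. In 10% over baseline, AGP1, BAP3 and CAN1 changed sign between settings. BAP2, MUP1, TAT1 and TAT2 stayed positive and DIP5 stayed negative in every setting. GAP1 was 0 as deposited and negative otherwise, and LYP1 was 0 with centred arrays and positive otherwise. The members' median in 10% over 1% was positive in every setting, from 0.008 (centred) to 0.0285 as deposited. No paired analysis was possible because each group is 1 array. Signal over background could not be judged from these values.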

Other observations

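There were 2 probe sets whose lower-case symbols are spelled like a member, gap1 and can1. The S. cerevisiae table does not hold their gene identifiers, and their organism is not known from the annotation. The probe set for gap1 read 5.281 and that for can1 read 5.586, each value the same in all 3 arrays to 3 decimals, where the S. cerevisiae genes GAP1 and CAN1 read 13.363 and 12.228 in the baseline array.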
